A study of Bos taurus with 9 samples.

Results

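The genes VTCN1, FCGR2B, CD274, CD276, LGALS9 and SERPINB9 were looked up by symbol among the 20679 genes counted in RNA-seq of cultured bovine uterine glands, and all 6 were found. Each encodes a molecule known to restrain immune cells or to protect cells from them. The cultures started from gland fragments that the authors isolated enzymatically from endometria of luteal-phase uteri from an abattoir, without a visible conceptus, and picked under a stereomicroscope. All groups were embedded in Matrigel, a basement membrane gel, in a medium with serum albumin, insulin, transferrin, selenite, ascorbic acid and gentamycin, and were harvested on day 5. The 3 CYST libraries came from cultures without EGF, which form hollow cysts. The 3 MAT libraries came from cultures with EGF, which form tubular uterine gland-like (UG-LIKE) structures, and the 3 MAT + COL libraries from UG-LIKE structures grown with EGF in Matrigel supplemented with type I collagen. The labels do not give the ages of the cows or say whether fragments of several cows were pooled.

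VTCN1 (B7-H4), CD274 (PD-L1) and CD276 (B7-H3) belong to the B7 family of membrane proteins, which bind receptors on T cells and in these cases mainly dampen their responses. FCGR2B is the inhibitory receptor for the Fc part of IgG, best known from B cells and macrophages, and signals through a tyrosine motif (ITIM) that recruits phosphatases. LGALS9 is a secreted galectin that binds sugars on T cells and other leukocytes, and SERPINB9 is an intracellular serpin that inhibits granzyme B, the protease with which cytotoxic lymphocytes kill. In the uterus, such molecules are discussed for the tolerance of the mother towards the conceptus.

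The 6 genes were chosen by their known function and on counts and TPM of these same groups, and which values picked each of them is not recorded. Their differences are therefore given as a description, without p-values, in all 3 comparisons. Levels are the TPM values deposited by the authors, which are scaled for gene length and library and can be compared between genes. Differences are Log2FC values fitted by edgeR on the deposited counts. A gene is named as called where its p from edgeR's quasi-likelihood test, adjusted over all genes tested, was under 0.05. Libraries of the same replicate number were alike across groups, and a second fit therefore took the replicate number as a block. Reads counted on genes ranged from 8424028 to 16829884 in the CYST libraries, from 6568968 to 17936445 in MAT and from 16665013 to 17948600 in MAT + COL. The labels call the tissue epithelial cells of the uterine gland. All 7 epithelial markers read were found in every group, with a summed level of 17700 to 19100 TPM in CYST, 28200 to 44000 in MAT and 29100 to 39200 in MAT + COL. Stromal markers were also present, with DCN as the highest and a sum of 1990 to 4490, 738 to 2950 and 1870 to 3440 TPM. In such bulk cultures, fewer cells of a type and less RNA per cell cannot be told apart.

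VTCN1 was nearly silent in cysts and expressed in every culture with EGF. Its level was 0, 0 and 0.543 TPM in CYST replicates 1, 2 and 3, which stood on 0, 0 and 9 reads. On the scale of CPM, the counts divided by the library total, a count of 0 allows up to 0.356 CPM in replicate 1 and 0.178 CPM in replicate 2, on a floor of 3 reads. These limits, like the intervals on reads below, cover counting error only. In the MAT libraries VTCN1 was at 22.4, 61.7 and 26.6 TPM, on 224, 1648 and 532 reads, and in the MAT + COL libraries at 32.5, 40.0 and 42.7 TPM. All 6 libraries with EGF were thus above all 3 cyst libraries, and the MAT and MAT + COL ranges overlapped.

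The means of VTCN1 were 0.181 ± 0.313 TPM (SD, n = 3) in CYST, 36.9 ± 21.6 in MAT and 38.4 ± 5.29 in MAT + COL. From the reads summed over each group, VTCN1 was 266-fold higher in MAT than in CYST, with a 95% interval of 140 to 582. It was 227-fold higher in MAT + COL, with an interval of 119 to 497. The fitted Log2FC against CYST was 7.64 (standard error 1.06) for MAT and 7.67 (standard error 0.97) for MAT + COL. The 9 reads of CYST replicate 3 set these values. Without that library no VTCN1 read was left in cysts, and the level was at least 592-fold higher in MAT and at least 505-fold higher in MAT + COL, against a floor of 3 reads over the 2 remaining libraries. Between MAT + COL and MAT, VTCN1 did not differ beyond the spread, with a Log2FC of 0.00 and a 95% interval of -0.91 to 0.90 without the block, and of 0.11 with an interval of -0.37 to 0.59 with it. The gene (ENSBTAG00000014466) lies on chromosome 3 from 26012208 to 26074132 of ARS-UCD2.0, on the plus strand, and no other listed gene overlaps it.

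**Figure D1:**
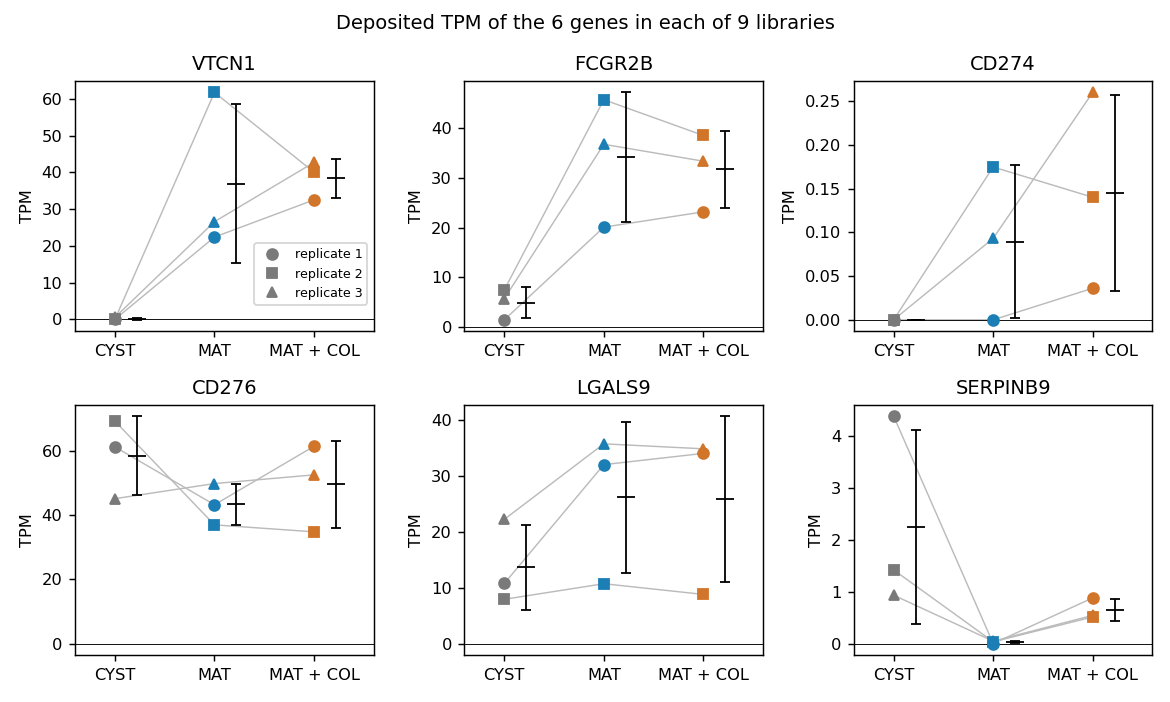
Deposited TPM (y axis, linear, with its own scale in each panel) of the 6 genes in the 3 CYST, 3 MAT and 3 MAT + COL libraries (x axis). Symbols are libraries, grey lines join the same replicate number, and black marks give the mean ± SD of 3 libraries. VTCN1 and FCGR2B lie higher in all 6 libraries with EGF than in the cysts, SERPINB9 is at most 0.0454 TPM in MAT, and LGALS9 is lowest in replicate 2 of each group.

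FCGR2B was present in cysts and several-fold higher with EGF. It was at 1.39, 7.42 and 5.65 TPM in CYST replicates 1, 2 and 3, at 20.1, 45.8 and 36.8 TPM in the MAT replicates and at 23.2, 38.6 and 33.4 TPM in the MAT + COL replicates. The lowest library with EGF was above the highest cyst library, and replicate 1 was the lowest of each group. Between libraries of the same number, MAT was 14.5, 6.17 and 6.50 times as high as CYST. The group means were 4.82 ± 3.10 TPM (SD, n = 3), 34.2 ± 13.0 and 31.7 ± 7.84. The Log2FC against CYST was 2.79 (standard error 0.59) in MAT and 2.63 (standard error 0.57) in MAT + COL. With the replicate block it was 2.96 (standard error 0.30) and 2.84 (standard error 0.35). Between MAT + COL and MAT it was -0.18, with a 95% interval of -1.02 to 0.66, and -0.15 with an interval of -0.46 to 0.17 with the block. FCGR2B (ENSBTAG00000021842) lies on chromosome 3 from 7931209 to 7947843, on the minus strand, and its neighbours there include FCRLB, FCRLA, FCGR3A and FCGR2A.

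Reads of such related receptors can be shared by the counting, and how the authors' software assigned them is not given in the sources used here. The level of FCGR2A, an activating IgG receptor, was between 0 and 1.70 TPM in the 9 libraries, on 41 reads in all. FCGR3A, which binds IgG on natural killer cells and macrophages, had 11 reads in all. FCER1G, the signalling chain of activating Fc receptors, was at 0.947 to 6.92 TPM in CYST, 0.261 to 3.66 in MAT and 0 to 11.8 in MAT + COL. None of the 3 had a higher level in every library with EGF than in every cyst library, as FCGR2B did. The neighbour FCRLB was higher in every MAT library, at 5.19 to 7.12 TPM against 2.06 to 3.27 in CYST, but overlapped the cysts in MAT + COL. Such a lack of overlap was not particular to FCGR2B. In either direction, it held for 23.7% of all genes tested between CYST and MAT, and for 24.7% between CYST and MAT + COL.

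FCGR2B is typical of B cells, macrophages and some endothelia, so the markers of these cells were read beside it. Of 5 B cell markers, CD79A had no read in any of the 9 libraries and MS4A1 had 1. The summed level of the 5 was 0.516 to 1.11 TPM in CYST, 0.224 to 1.28 in MAT and 1.42 to 1.87 in MAT + COL, with JCHAIN highest. The leukocyte marker PTPRC (CD45) was at 0.406 to 1.19 TPM in CYST and 0 to 0.978 in MAT, and the macrophage receptor CSF1R at 0.0980 to 3.03 and 0 to 0.517. MAT replicate 3, with 660 reads of FCGR2B, had no read of PTPRC, CSF1R or TYROBP but the highest CD14 and LCP1 levels of the 9 libraries, at 45.2 and 110 TPM. Over all 8 macrophage and monocyte markers, the sum was 25.0 to 36.5 TPM in CYST, 20.5 to 48.3 in MAT and 28.5 to 34.6 in MAT + COL, with CD14 highest and MAT replicate 3 at the top. All 8 had a read in each group. The 6 general leukocyte markers summed to 43.1 to 80.5, 64.3 to 120 and 58.6 to 121 TPM, with LCP1 highest. The 7 markers of T and NK cells summed to 1.40 to 2.30, 1.46 to 5.71 and 1.99 to 4.91 TPM, and NCR1 and CD4 were at 0 in MAT. MAT replicate 2, which had the highest FCGR2B level, had no read of the endothelial cadherin CDH5 but 201 reads of the VEGF receptor KDR, at 4.20 TPM against 1.11 to 1.86 TPM in CYST, and 272 reads of VWF. The 5 endothelial markers summed to 12.8 to 18.4, 8.60 to 26.3 and 14.4 to 27.5 TPM. EPCAM, a marker of epithelium, was at 395 to 450 TPM in CYST and 637 to 764 in MAT, with a fitted Log2FC of 0.70 (standard error 0.17) that was called with the block and not without it. No marker of the 7 cell type lists was called without the block. The part of the higher epithelial marker levels in the values of VTCN1 and FCGR2B was not tested.

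**Figure D2:**
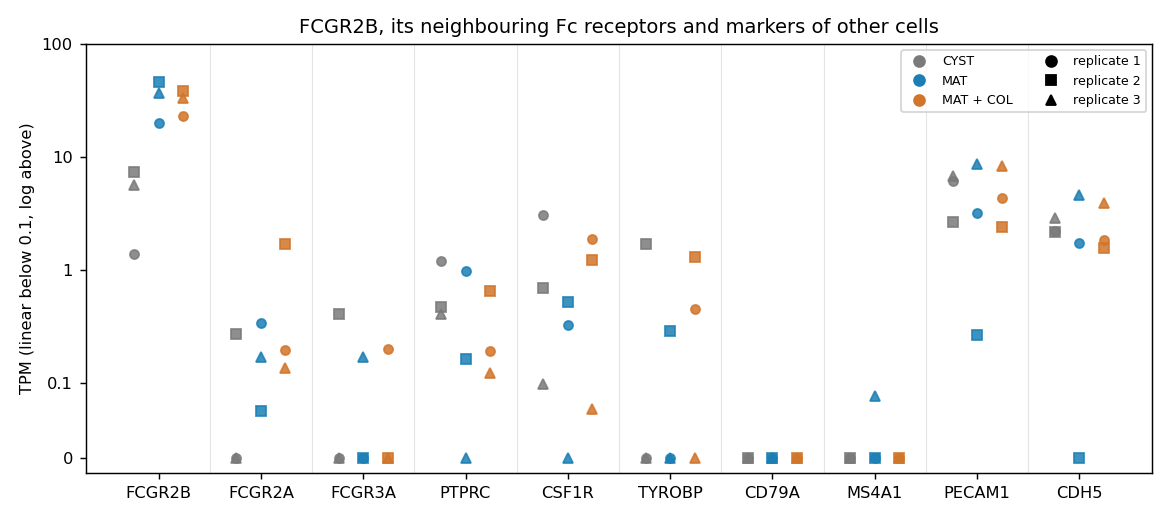
TPM (y axis, linear below 0.1 and logarithmic above) of FCGR2B, of 2 neighbouring IgG receptor genes and of markers of leukocytes (PTPRC), macrophages (CSF1R, TYROBP), B cells (CD79A, MS4A1) and endothelium (PECAM1, CDH5) in the 9 libraries. Colours are groups and symbols replicate numbers. Only FCGR2B of the 10 genes drawn has every MAT and MAT + COL library above every cyst library. Of all genes tested, 23.7% did not overlap between CYST and MAT, and 24.7% between CYST and MAT + COL. The markers drawn are a selection from their lists. Of those not drawn, the endothelial KDR and the leukocyte marker CD52 were higher in every MAT library than in every cyst library. KDR was at 2.43 to 4.41 TPM in MAT against 1.11 to 1.86 in CYST. Both overlapped the cysts in MAT + COL, as did the neighbouring gene FCRLB, which is not drawn and was also higher in every MAT library. No epithelial marker is drawn, and EPCAM, KRT8 and KRT19 were higher in every library with EGF than in every cyst library.

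The partners through which the FCGR2B tyrosine motif is known to signal were read in the same fit. PTPN6 (SHP-1), a phosphatase, was at 22.1 to 24.5 TPM in CYST and 28.2 to 31.3 in MAT (Log2FC 0.34, standard error 0.21, edgeR adjusted p = 0.402). LYN, a kinase that phosphorylates the motif, was at 3.19 to 3.95 and 3.70 to 4.68 TPM (Log2FC 0.25, standard error 0.35, edgeR adjusted p = 0.742). INPP5D (SHIP-1), the lipid phosphatase it recruits in leukocytes, was between 0 and 0.514 TPM in the 9 libraries and did not pass the filter on low counts for MAT against CYST. In MAT + COL, PTPN6 was at 35.0 to 36.6 TPM and LYN at 3.70 to 6.23. PTPN6 was thus higher in every library with EGF than in every cyst library, while LYN overlapped. Among all genes tested, 23.7% likewise did not overlap between CYST and MAT, and 24.7% between CYST and MAT + COL. Over the 20 genes listed for signalling behind Fc receptors, 18 were tested and 0 were called by edgeR for MAT against CYST, with or without the block, against 2 and 3 with an unadjusted p under 0.05 and 1 called by DESeq2. The highest of them, PIK3CB and VAV3, fitted at a Log2FC of -0.49 (standard error 0.28) and -0.64 (standard error 0.19).

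SERPINB9 ran the other way from VTCN1. It was at 4.38, 1.42 and 0.931 TPM in CYST replicates 1, 2 and 3, on 62, 39 and 17 reads. In the MAT libraries 0, 1 and 1 reads were counted, which is 0, 0.0340 and 0.0454 TPM. With collagen I the reads were 25, 15 and 15, and the levels 0.879, 0.512 and 0.543 TPM. The 3 groups did not overlap, with CYST highest, MAT + COL between and MAT lowest. In reads summed over the groups, CYST was 59.3-fold above MAT (95% interval 16.1 to 495) and 3.12-fold above MAT + COL (2.25 to 4.38). MAT + COL was 19.0-fold above MAT, with an interval of 5.01 to 161. The fitted Log2FC was -5.87 (standard error 1.01) for MAT against CYST, -1.82 (standard error 0.67) for MAT + COL against CYST and 4.08 (standard error 0.89) for MAT + COL against MAT.

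These are small numbers of reads, and some markers of macrophages were likewise lowest in MAT. MRC1, a macrophage receptor, had 18 reads in CYST, 1 in MAT and 58 in MAT + COL, and CSF1R had 71, 21 and 102. Their mean levels were 0.237, 0.0202 and 0.448 TPM for MRC1 and 1.27, 0.281 and 1.06 TPM for CSF1R. CD68, CD163, TYROBP and AIF1 of the same list also had their lowest mean in MAT, with CD68 at 7.85, 3.48 and 5.30 TPM. ITGAM was lowest in MAT + COL and CD14 highest in MAT, at 21.0, 25.9 and 23.2 TPM. The sum of the list, given above, overlapped between the groups, but CD14 made up most of it. Genes of lymphocytes differed in direction. CD8A had 38 reads in CYST, 3 in MAT and 33 in MAT + COL, and NKG7, from the list of cytotoxic granule genes, had 48, 9 and 57. CD3D had 21, 96 and 138 reads, and CD3E and CD2 likewise had more reads in MAT than in CYST. CD4, NCR1 and KLRB1 had at most 2 reads in any group. The part of macrophages or lymphocytes in the SERPINB9 values was not tested. SERPINB9 (ENSBTAG00000031267) lies on chromosome 23 from 50784474 to 50794416, on the plus strand, in a row of serpin genes with SERPINB6 and SERPINB1. An unnamed gene between SERPINB6 and SERPINB9 (ENSBTAG00000053511) was at 2.30 TPM in MAT replicate 1, where SERPINB9 had no read, and at 0 to 2.68 TPM in the other libraries.

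CD276 had the highest mean level of the 6 genes in every group and, of the 5 that were fitted, the smallest Log2FC against CYST. It was at 61.4, 69.4 and 45.2 TPM in CYST replicates 1, 2 and 3, at 43.3, 37.0 and 50.0 in MAT and at 61.6, 34.9 and 52.7 in MAT + COL. The ranges overlapped in all 3 comparisons, and replicate 2 was the highest cyst library but the lowest of both groups with EGF. The Log2FC of MAT against CYST was -0.42, with a 95% interval of -0.87 to 0.02, and that of MAT + COL against MAT 0.11, with an interval of -0.47 to 0.68. CD276 (ENSBTAG00000019734) lies on chromosome 10 from 20490902 to 20522745, on the plus strand.

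LGALS9 differed more between replicate numbers than between groups. It was at 10.7, 7.91 and 22.2 TPM in CYST replicates 1, 2 and 3, at 32.0, 10.7 and 35.7 TPM in MAT and at 34.0, 8.79 and 34.8 TPM in MAT + COL. Replicate 2 was the lowest library of each group. Within each number MAT was above CYST, 2.98, 1.35 and 1.61 times, although the groups overlapped. The Log2FC of MAT against CYST was 0.86 with a standard error of 0.60 without the block and 0.87 with a standard error of 0.31 with it, and LGALS9 was called in neither. Between MAT + COL and MAT the Log2FC was -0.10, with a 95% interval of -1.57 to 1.37, which narrowed to -0.54 to 0.24 around -0.15 with the block. LGALS9 (ENSBTAG00000006846) lies on chromosome 19 from 19368423 to 19387194, on the plus strand.

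CD274 was at or near the limit of detection throughout. No read was counted in the 3 CYST libraries, 0, 5 and 2 in MAT and 1, 4 and 7 in MAT + COL. The 35211930 reads of the cyst libraries allow a CD274 level of up to 0.0852 CPM. Against that floor of 3 reads over the group, the summed reads were 2.32-fold higher in MAT and 2.75-fold higher in MAT + COL. These ratios leave out the counting error of the reads with EGF. The 95% intervals on the summed reads started at 1.43-fold for MAT and 1.91-fold for MAT + COL. The 12 reads in MAT + COL and 7 in MAT gave a ratio of 1.18 with a 95% interval of 0.429 to 3.55. CD274 did not pass the filter on low counts, and no Log2FC is given for it. The deposited tables give it (ENSBTAG00000000095) the span from 39245168 to 39351659 of chromosome 8, on the minus strand. That span includes PLGRKT on the plus strand, which averaged 284 TPM. The strand setting of the counting is not given in the sources used here, so reads of CD274 and PLGRKT cannot be told apart where their exons overlap. CD80, which also binds CD274, was at 0 TPM in 6 of the 9 libraries and at most 1.43 TPM. PDCD1 (PD-1), the receptor of CD274, was at 3.63 to 8.28 TPM in CYST and 1.03 to 3.94 in MAT (Log2FC -1.31, standard error 0.66, edgeR adjusted p = 0.307). CMTM6, which keeps CD274 on the cell surface, was at 227 to 341 TPM in CYST and 267 to 381 in MAT.

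In order of mean TPM, CYST cultures had CD276 at 58.7 TPM, LGALS9 at 13.6, FCGR2B at 4.82, SERPINB9 at 2.24, VTCN1 at 0.181 and CD274 at 0. Of these neighbours, FCGR2B overlapped SERPINB9 in CYST, and VTCN1 and CD274 shared values of 0, while the others did not overlap. In MAT the order was CD276 at 43.4 TPM, VTCN1 at 36.9, FCGR2B at 34.2, LGALS9 at 26.1, CD274 at 0.0892 and SERPINB9 at 0.0265. There, each of the first 4 overlapped the next, as did CD274 and SERPINB9, and LGALS9 and CD274 did not. In MAT + COL the order of the first 4 was as in MAT, at 49.7, 38.4, 31.7 and 25.9 TPM with each overlapping the next, followed by SERPINB9 at 0.645 TPM and CD274 at 0.145 TPM, which did not overlap.

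Of the 6 genes, 5 passed the filter on low counts in each comparison, all but CD274. For MAT against CYST, 1.79% of the 12074 genes tested were called without the block, and 2 of the 6 genes were, VTCN1 and SERPINB9. SERPINB9 was not called by limma on log2(TPM + 1), where its Log2FC was -1.51. With the block 10.6% were called, and FCGR2B was called too. For MAT + COL against CYST, 1.49% of 12509 genes were called without the block, VTCN1 among them, and 5.26% with it, when FCGR2B was added. These comparisons share the CYST libraries. Since the genes were named with these differences known, nothing is read from the counts. The DEG criteria of the study also ask for a Log2FC beyond 1 in size and for more than 1 TPM, which was taken to hold in all 6 libraries compared. Under them 1.45% of genes were called for MAT against CYST and 1.13% for MAT + COL against CYST without the block, and none of the 6 genes. VTCN1 and SERPINB9 had libraries under 1 TPM. FCGR2B qualified with the block, among 6.01% of the genes for MAT against CYST and 3.46% for MAT + COL against CYST. Without CYST replicate 1 or 2 or MAT replicate 1 or 2, none of the 6 was called by edgeR for MAT against CYST, and between 5 and 32 genes were called in all, against 1872 to 2305 with an unadjusted p under 0.05. Without MAT replicate 3, VTCN1 alone of the 6 was called, among 122 genes. For MAT + COL against CYST, leaving out CYST replicate 1 or 2 or MAT + COL replicate 1 or 2 likewise ended the call of VTCN1, with 3 to 7 genes called in all and 1901 to 2252 at an unadjusted p under 0.05.

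**Figure D3:**
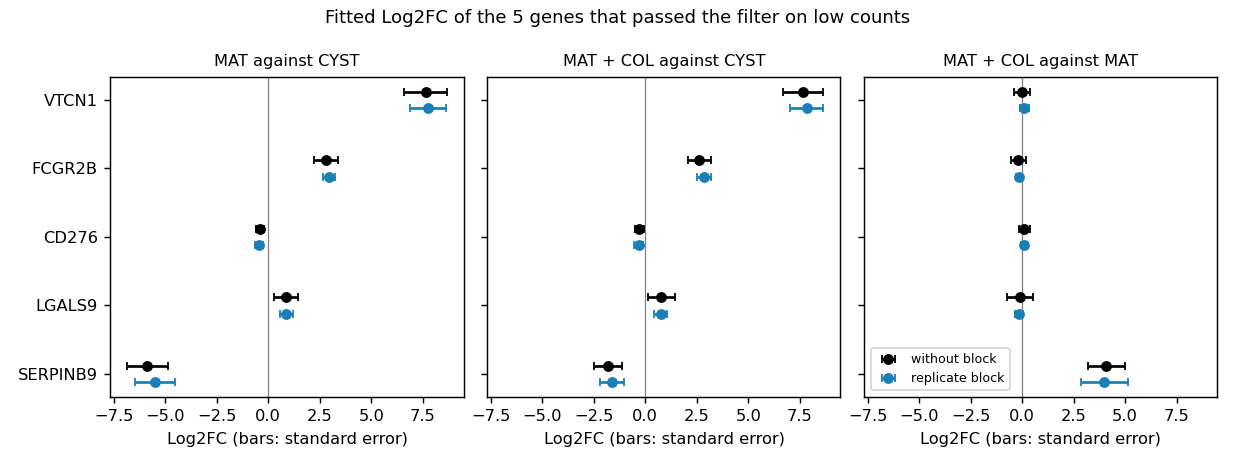
Fitted Log2FC (x axis, the same scale in each panel) of the 5 genes that passed the filter, in the 3 comparisons, without (black) and with (blue) the replicate block. Bars are standard errors of fits to 6 libraries. VTCN1 and FCGR2B lie to the right in both comparisons with CYST and close to 0 for collagen I, and SERPINB9 lies at -5.87, -1.82 and 4.08 without the block.

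For MAT + COL against MAT, 0 of 12470 genes (0%) were called by edgeR with or without the block, and 51 and 618 had an unadjusted p under 0.05. DESeq2 also called 0, with 81 at an unadjusted p under 0.05. SERPINB9 was thus not called for collagen I. The groups did not overlap in TPM for SERPINB9, and neither did they for 3.57% of the genes tested. For VTCN1, FCGR2B, CD276 and LGALS9 they overlapped. Against CYST, the TPM of VTCN1, FCGR2B and SERPINB9 did not overlap in MAT, as for 23.7% of genes tested, nor in MAT + COL, as for 24.7%. CD274 did not overlap between CYST and MAT + COL, on the reads given above.

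The genes whose levels followed VTCN1 and FCGR2B most closely were ranked by Pearson's r of log2 CPM over the 9 libraries, among 12857 genes. The 3 cyst libraries lay below the others for both genes, so that r takes in the gap between the groups. ENPP3, an enzyme that splits extracellular nucleotides, came first for VTCN1 (r = 0.994), with 17.0 to 33.2 TPM in CYST and 121 to 190 with EGF. Other genes close to VTCN1 were C1GALT1, which builds core 1 O-glycans (0.990), STAT6, which transmits interleukin-4 and interleukin-13 signals (0.990), and CD109, a membrane protein that binds TGF-beta (0.989). These genes were expressed in cysts, with CD109 at 10.2 to 15.9 TPM and STAT6 at 43.1 to 47.5, where VTCN1 was nearly silent. For FCGR2B the first were ITGB6, an integrin chain (0.986), TXNIP, an inhibitor of thioredoxin (0.983), TCAF1 (0.982), the unnamed ENSBTAG00000051386 (0.982) and RIT1, a Ras-like GTPase (0.981). ITGB6 was at 47.4 to 154 TPM in CYST and 213 to 367 TPM with EGF.

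Beyond the 6 genes, 12 lists of immune inhibitory and related genes held 179 others, of which 154 were found by symbol. For MAT against CYST, 107 of them passed the filter, and 2 of the 107 (1.87%) were called by edgeR without the block, against 1.79% of all genes tested. These were LGALS4 and SERPINB12, both higher. LGALS4, a galectin of digestive epithelia, rose from 93.9 ± 19.9 TPM (SD, n = 3) to 332 ± 55.7 (Log2FC 1.81, standard error 0.22, edgeR adjusted p = 0.0216). SERPINB12 rose from 2.35 ± 0.239 to 10.6 ± 4.36 TPM (Log2FC 2.13, standard error 0.38, edgeR adjusted p = 0.0450). With the block 16 of the 107 (15.0%) were called, 13 higher and 3 lower, against 10.6% of all genes. The median Log2FC of the 107 was 0.19 without the block, against 0.01 over all genes.

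The other clade B serpins, the intracellular serpin family of SERPINB9, differed from it in sign. All 8 that were found had a positive Log2FC for MAT against CYST, with a median of 1.13. SERPINB12 was called without the block, and SERPINB1, SERPINB5, SERPINB7 and SERPINB12 with it. SERPINB1, an inhibitor of neutrophil proteases, was at 159, 153 and 324 TPM in CYST replicates 1, 2 and 3 and at 456, 384 and 541 TPM in MAT. SERPINB7 was at 46.9 to 64.5 TPM in CYST and 96.1 to 250 in MAT. Its lowest values with EGF were those of replicate 3, at 96.1 TPM in MAT and 101 in MAT + COL. The gene of granzyme B itself was not analysed here. Of other granzymes, GZMH and GZMM had no read in any of the 9 libraries, and GZMA had at most 3 in each.

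Among the other B7 family genes, 5 of 9 found were tested, and 0 were called by edgeR for MAT against CYST, with or without the block, or by DESeq2. None had an unadjusted p under 0.05 without the block, and 1 did with it. ICOSLG, the ligand of the costimulatory receptor ICOS, was the highest, at 75.4, 102 and 53.8 TPM in CYST replicates 1, 2 and 3 and 59.1, 65.6 and 37.6 TPM in MAT (Log2FC -0.50, standard error 0.25, edgeR adjusted p = 0.302). NCR3LG1 (B7-H6), which natural killer cells recognise, was at 5.60 to 8.57 TPM in CYST and 4.54 to 9.27 in MAT. PDCD1LG2 (PD-L2), the neighbour of CD274 on chromosome 8, did not exceed 1.81 TPM in any library. In MAT, VTCN1 came after ICOSLG and CD276 among the B7 genes by mean TPM, and its range overlapped theirs.

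Of the galectins, LGALS4 was called and LGALS3, listed among the other inhibitory ligands, was the most abundant, at 394, 505 and 668 TPM in CYST replicates 1, 2 and 3 and at 990, 1700 and 2001 TPM in MAT. LGALS3 (Log2FC 1.54, standard error 0.36, edgeR adjusted p = 0.0706) was called with the block, by DESeq2 and by both limma fits, but not by edgeR without the block. LGALS8, which like LGALS4 and LGALS9 carries a pair of carbohydrate-binding domains, averaged 18.9 TPM in CYST and 18.2 in MAT. Of the Fc receptors, FCGRT, which carries IgG across cells, and PIGR, which carries IgA and IgM into secretions, had the highest means. FCGRT averaged 137 TPM in CYST and 153 in MAT (Log2FC 0.15, standard error 0.18, edgeR adjusted p = 0.684), and PIGR 86.8 and 46.5 TPM (Log2FC -0.91, standard error 0.43, edgeR adjusted p = 0.280). For collagen I, 0 of 112 list genes tested were called by edgeR with or without the block, or by DESeq2. Without the block 0 of them had an unadjusted p under 0.05 and with it 9, and 54 had a positive Log2FC without the block.

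**Figure D4:**
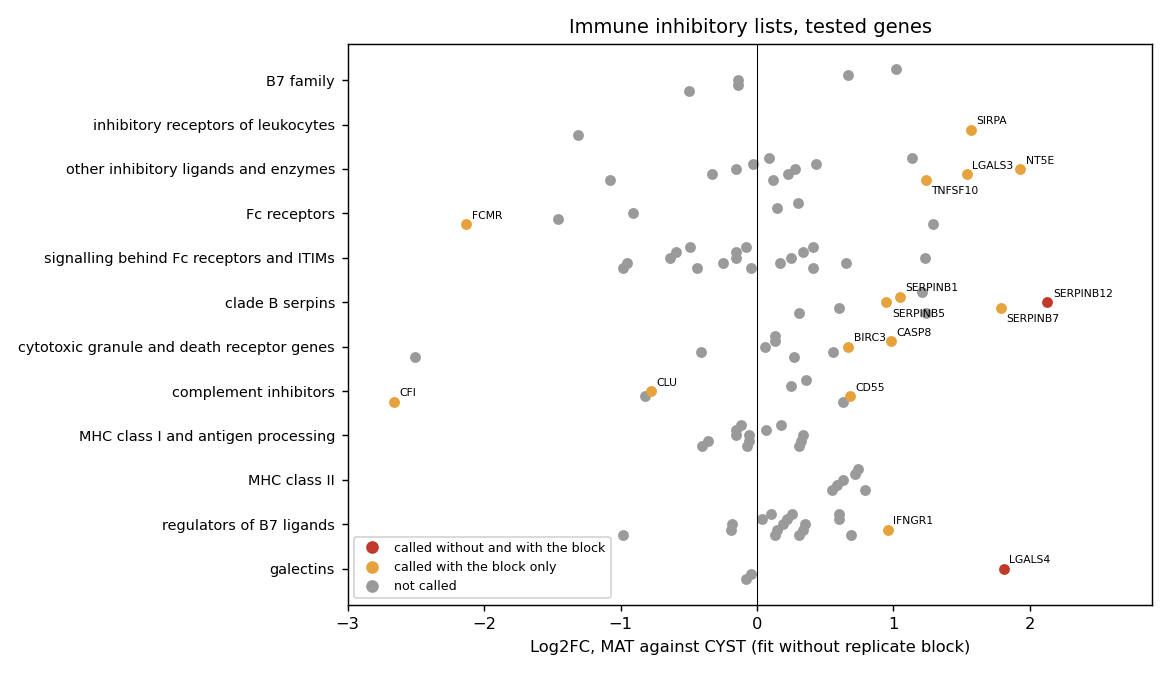
Log2FC of MAT against CYST without the replicate block (x axis) for the tested genes of the 12 lists (y axis), 1 point per gene. Red points were called without and with the block, orange points with the block only, and grey points in neither fit. All 8 clade B serpins lie above 0, and 13 of the 16 coloured points lie to the right.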

How the data were processed

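The data were RNA-seq libraries of 3 cultures per group. After trimming, the authors mapped the reads to the bovine assembly ARS-UCD2.0 with CLC Genomics Workbench at its defaults. They deposited raw counts per gene and the TPM values of the same 20679 genes. The release of the annotation and the strand setting are not given in the sources used here. Groups and replicate numbers came from the sample titles, and all per-sample columns were used. The labels do not say that same-numbered libraries share a cow, while the study describes the MAT and MAT + COL libraries as grouping by individual. The genes and lists were chosen with earlier results of these data known.

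Differences came from edgeR 4.0.16 in R 4.3.3, fitted on the deposited counts of the 6 libraries compared. Low genes were removed by filterByExpr (minimum count of 10) and libraries scaled by TMM. The test was glmQLFTest after glmQLFit, and p was adjusted by Benjamini-Hochberg over every gene tested, with a threshold of 0.05. Standard errors came from the Log2FC and F statistic, and their 95% intervals from the t distribution. The deviations from group means of libraries with the same number correlated at 0.293 to 0.673 over 12858 genes, each above 0.1, so the replicate number was taken to pair the libraries and was also used as a block. Ratios of summed counts were scaled by TMM library sizes and given exact conditional intervals. The fit was tested on simulated data. DESeq2 1.42.0, RLE size factors, no filter, all 9 libraries in one fit, limma 3.58.1 on log2(TPM + 1) and log2(TPM + 0.1), the DEG criteria of the study and leaving out each library were the alternatives, and the block with the DEG criteria was added after the data had been seen. Genes of the lists were named where called, at most 3 per list, or else the 2 with the highest mean TPM. Those called with the block but not without it, the other Fc receptors, granzymes and cell markers shown, NKG7, PDCD1LG2 and LGALS8 were named after their values were seen. P-values set the difference between groups against the spread between these libraries, which the labels do not tie to single cows. The 5 genes most like VTCN1 and FCGR2B were ranked, and 1 of them is not reported here. HAVCR2 and GZMB, partners of LGALS9 and SERPINB9, were not analysed here. Plots used matplotlib 3.10.9 (Python 3.11.15).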

Additional observations from a re-analysis of the deposited data

How the results depend on the processing

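For MAT against CYST, the 216 genes called became 1235 with DESeq2, 1277 with the replicate block, 580 with all 9 libraries in one fit and 726 with the block and the DEG criteria, and 5 to 267 when 1 library was left out. The 2 of the 6 genes called (VTCN1 and SERPINB9) became 0 under the DEG criteria and 1 under the block with those criteria, and 0 to 2 when 1 library was left out. The 2 list genes called became 14 with DESeq2, 4 without the filter, 16 with the block, 6 with all 9 libraries, 4 with limma on log2(TPM + 1) and 9 under the block with the DEG criteria, and 0 to 4 when 1 library was left out. FCGR2B was also called there with DESeq2, with the block, without the filter, with all 9 libraries and with both limma fits. For MAT + COL against CYST, the 186 genes called became 1419 with DESeq2, 658 with the block, 601 with all 9 libraries and 433 under the block with the DEG criteria, and 3 to 186 when 1 library was left out. The 1 of the 6 genes called (VTCN1) became 2, with FCGR2B, under DESeq2, the block, all 9 libraries and limma on log2(TPM + 1), 0 under the DEG criteria, and 0 to 1 when 1 library was left out. The 1 list gene called became 15 with DESeq2, 7 with the block, 7 with all 9 libraries, 2 without the filter and with either limma fit, and 6 under the block with the DEG criteria, and 0 to 2 when 1 library was left out. The cause of these shifts was not tested. For MAT + COL against MAT every alternative called 0 genes, as the edgeR fit without the block did, with 31 to 618 at an unadjusted p under 0.05. Of 195 Log2FC values of the 5 fitted genes under the alternatives, 183 moved by less than 1 SD between replicates, and no called value changed sign. SERPINB9 moved with limma on log2(TPM + 1) from -5.87 to -1.51 for MAT against CYST and from 4.08 to 0.67 for MAT + COL against MAT. VTCN1 fitted at 12.49 (MAT) and 12.82 (MAT + COL) without CYST replicate 3, where no cyst read remained and the value depends on the prior count, and at 4.89 and 5.08 with limma on log2(TPM + 1), a scale that shrinks changes of low genes such as these. Depth limits CD274 and SERPINB9, which stand on few reads.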

Other observations

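Other genes by which cells resist complement and phagocytes were measured in the same libraries. CLU, a secreted chaperone that also inhibits complement, was the most abundant of the complement inhibitors, at 3075, 3400 and 2557 TPM in CYST replicates 1, 2 and 3 and at 2293, 1714 and 1280 TPM in MAT. CLU (Log2FC -0.78, standard error 0.22, edgeR adjusted p = 0.103) was called with the replicate block and by DESeq2, but not by edgeR without the block. CFI, the protease that cleaves complement C3b, had the largest fall of the listed genes that were called with the block, from 72.9, 77.3 and 8.95 TPM in CYST to 7.01, 15.1 and 1.85 TPM in MAT. CD55, a membrane inhibitor of complement, was higher in MAT, with 145 to 187 TPM in CYST and 233 to 282 TPM in MAT, and was called with the block but not without it.

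SIRPA, the receptor that reads the CD47 signal on neighbouring cells, was at 3.91 to 8.59 TPM in CYST and 15.8 to 19.3 TPM in MAT (Log2FC 1.57, standard error 0.32, edgeR adjusted p = 0.0545), and was called with the block, by DESeq2, without the filter and with all 9 libraries in one fit. NT5E (CD73), which makes adenosine, differed widely between replicate numbers. It was at 7.16 TPM in CYST, 9.72 TPM in MAT and 10.9 TPM in MAT + COL for replicate 3, at 178, 601 and 481 TPM for replicate 2 and at 41.6, 207 and 246 TPM for replicate 1. Within each replicate number NT5E was higher in MAT than in CYST. It was called for MAT against CYST with the block but not without it. Of the 12 genes of the MHC class II list, 7 were found by symbol, and BOLA-DRA and BOLA-DRB3 were not among them. BOLA-DQB was found but not tested, and averaged 1.71 TPM in CYST and 1.43 in MAT. All 6 tested genes had a positive Log2FC for MAT against CYST, with a median of 0.67. Of these 6, 0 were called by edgeR with or without the block, against 2 with an unadjusted p under 0.05 in each and 1 called by DESeq2. The lysosomal thiol reductase IFI30 was the highest of them, at 203 to 228 TPM in CYST and 296 to 377 TPM in MAT. FCMR, a receptor for IgM, was at 3.79, 1.16 and 7.84 TPM in CYST and 0.695, 0.391 and 1.97 TPM in MAT, lower in each of the 3 same-numbered pairs and called with the block but not without it. These genes were picked after their values were seen.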
